A study of Mus musculus with 3 samples.

Results

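The cells described here were chosen from mouse B16F10 melanoma tumors by transcripts of the chemokine receptor gene Ccr7. A tumor barcode was kept with at least 1000 UMIs (unique molecular identifiers, each standing for 1 captured transcript), 400 genes or more and no more than 10% of UMIs from mitochondrial genes. A kept cell was a member with at least 2 Ccr7 UMIs, at least 4 UMIs over Ccr7, Fscn1, Ccl22 and Cacnb3 together, and at least 1% of its UMIs from the MHC class II genes H2-Aa, H2-Ab1, H2-Eb1 and Cd74. The gate held 628 of 8877 kept tumor cells. It held 540 of 4443 in the control tumor (12.2%, 95% exact binomial interval 11.2 to 13.2) and 88 of 4434 in the Treg-depleted tumor (1.99%, 1.595 to 2.440). In blood of a tumor-bearing mouse the same gate held 3 of 5550 kept cells (0.0541%, 0.0112 to 0.158). All intervals in the text are at 95% and cover counting error only.

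The series has 3 droplet libraries of 1 sample each, all from C57BL/6J mice with subcutaneous B16F10 tumors. The control blood and the control tumor came from wild-type mice with the treatment given as control. The third sample was a tumor from FoxP3 DTR mice, which carry a diphtheria toxin receptor at the Foxp3 locus, with the treatment given as treg-depleted, so that loss of regulatory T cells (Treg) and the FoxP3 DTR genotype cannot be told apart. The labels give no number of mice, no age and no agent or schedule of depletion. Cells had been sorted as CD45+, negative for CD90, NK1.1, Ly6G, B220 and SigF, and positive for CD11b, CD11c or both. With 1 library per group no difference between tumors was tested. Members were also chosen on counts of these same cells, so differences between members and other cells are descriptions, and no p-value is given.

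CCR7 is the receptor through which dendritic cells that have matured leave a tissue along the ligands CCL19 and CCL21 and reach the draining lymph node. Maturation in these cells is known to bring a shared program whatever the subset of origin: less antigen uptake, more costimulation, reorganised actin and NF-kB signaling through RelB. In tumors such cells carry antigen to T cells and also express genes that restrain T cells, and the program is commonly read from Ccr7, Fscn1, Ccl22 and Cacnb3.

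The gate did not select that program alone. Of the 540 members in the control tumor, 233 (43.2%) had UMIs of Ccr7 and of none of the other 3 genes, and 81 had UMIs of all 4. In the Treg-depleted tumor 10 of 88 members had Ccr7 alone and 15 (17.1%) had all 4. Fscn1, which encodes the actin-bundling protein fascin, had a UMI in 160 of 540 control members (29.6%) and in 28 of 88 members from the Treg-depleted tumor (31.8%). When the kept tumor cells were clustered without the 8 genes of the gate, the members spread over 16 of 22 clusters. A single cluster, number 20, had 3 of the 4 marker genes among its 10 leading genes, and it held 31 members. That number rests on the Leiden resolution of 1: at 0.5 the cluster led by the markers held 232 members, the 31 among them. The members are therefore called Ccr7-gated cells here, and the name mature dendritic cell-like is kept for cluster 20.

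Ccr7 lies on chromosome 11 from 99144196 to 99155077 on the minus strand in mm10. It was used by the gate, so its values are given as a description. Members of the control tumor held between 2 and 93 Ccr7 UMIs with a median of 10, and members of the Treg-depleted tumor between 2 and 57 with a median of 6. Summed over cells, the Ccr7 level was 910 CPM (UMIs of the gene for every 1000000 UMIs of the set) in control members and 27.6 CPM in the other kept cells of that tumor. The levels in the Treg-depleted tumor were 1054 CPM in members and 28.7 CPM in the others. In barcodes of 1 to 50 UMIs, which hold free RNA of the suspension, Ccr7 stood at 232 CPM in the control tumor and 61.7 CPM in the Treg-depleted tumor. After each cell was thinned at random to 1000 UMIs, Ccr7 was detected in 60.0% of control members (55.7 to 64.2) and in 2.33% of the other control cells (1.88 to 2.86). Without thinning, 10.6% of those other cells had a Ccr7 UMI at a median depth of 6000 UMIs.

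The other 3 genes of the sum differed in how many members they reached. Ccl22, on chromosome 8 from 94745590 to 94751699, encodes a ligand of CCR4, the receptor of regulatory and helper T cells. It was detected in 249 of 540 control members (46.1%) and in 75 of 88 members of the Treg-depleted tumor (85.2%), at 131 CPM and 1155 CPM. Cacnb3, on chromosome 15 from 98630840 to 98644529, encodes a beta subunit of voltage-gated calcium channels and was detected in 126 and 22 members, at 35.4 CPM and 50.4 CPM. Fscn1, on chromosome 5 from 142960343 to 142973185, stood at 139 CPM and 127 CPM. Many cells lay close to the thresholds. In the control tumor 45 members had a sum of exactly 4 UMIs and 51 cells were left outside with a sum of 3. In the Treg-depleted tumor 27 members had between 1% and under 1.5% MHC class II UMIs, and 35 cells that passed the counts had between 0.5% and under 1%. Failure on MHC class II alone excluded 23 control cells and 49 cells of the Treg-depleted tumor.

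Membership moved with the depth of a cell. Members had a median of 13967 UMIs against 6000 in the other kept cells of the control tumor, and 8270.5 against 3755 in the Treg-depleted tumor. With the kept cells of each tumor put in 5 equal groups by UMIs, the gate held 2.25% of the shallowest control group and 33.2% of the deepest. In the Treg-depleted tumor it held 0.564% of the shallowest group and 7.44% of the deepest. When every cell was thinned to 3000 UMIs, which left out 480 and 1612 shallower cells, the gate held 5.78% of control cells (5.07 to 6.55) and 1.84% of cells of the Treg-depleted tumor (1.38 to 2.41). Without thinning, the shares of the same cells were 13.4% and 2.91%. The groups do not match in depth between tumors: the deepest of the Treg-depleted tumor began at 6133 UMIs, and the third control group, from 5550 to 7908 UMIs, held 6.64%. After thinning the share was larger in the control tumor.

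**Figure D1:**
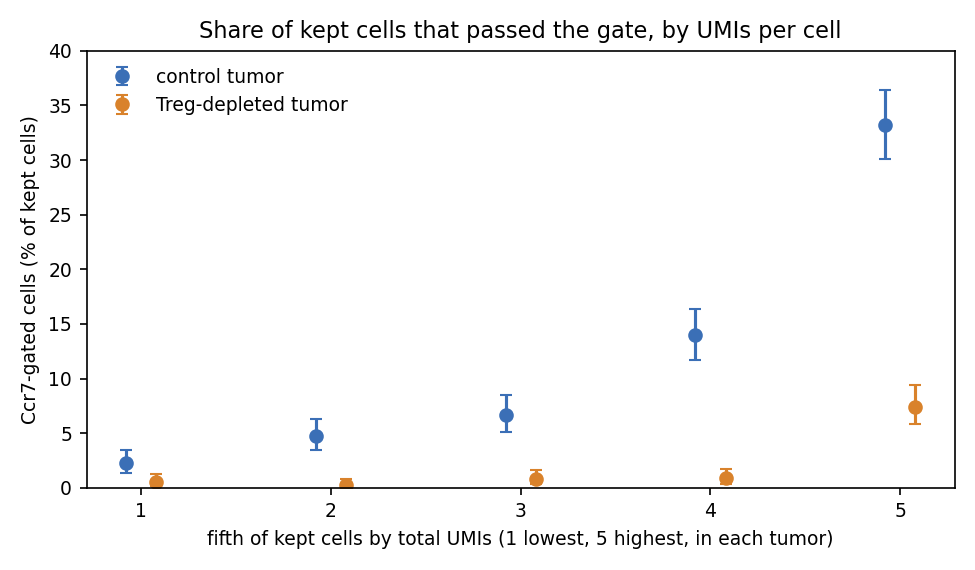
Share of kept cells that passed the gate (vertical axis, percent) in 5 equal groups of the kept cells by total UMIs (horizontal axis), by tumor, with 95% exact binomial intervals. In the deepest group the share was 33.2% for control and 7.44% for Treg depletion, above the other 4 groups of the same tumor.

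Simulated doublets were used to score cells. Removing the 158 highest control scores and the 157 highest of the Treg-depleted tumor, the number expected at this loading, took out 46 control members and 5 members of the Treg-depleted tumor. The tumors shared 36 kept barcodes. No barcode was a member in both tumors, and 5 members had a barcode that was kept in the other tumor. The part of doublets and of free RNA in the member counts was not tested beyond these values.

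The 628 Ccr7-gated cells fell mainly into 5 clusters. Cluster 4 held 266 of them (42.4%), 263 from the control tumor. Cluster 11 held 150 (23.9%), 139 from the control tumor. Cluster 9 held 47, all from the Treg-depleted tumor, and cluster 2 held 40, all from the control tumor. These clusters were also split by tumor over all kept cells. Cluster 9 had 363 kept cells from the Treg-depleted tumor and 1 from the control. Cluster 2 had 20 and 985, cluster 4 had 8 and 626, and cluster 11 had 44 and 271. The mature dendritic cell-like cluster 20 held 31 (4.94% of members), 21 from the control and 10 from the Treg-depleted tumor. Cluster 20 alone was made up mostly of members, with 67.4% of its 46 cells (52.0 to 80.5), against 47.6% of cluster 11, 42.0% of cluster 4 and 12.9% of cluster 9. Another 14 cells of cluster 20 met the counts of the gate and failed on MHC class II alone.

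**Figure D2:**
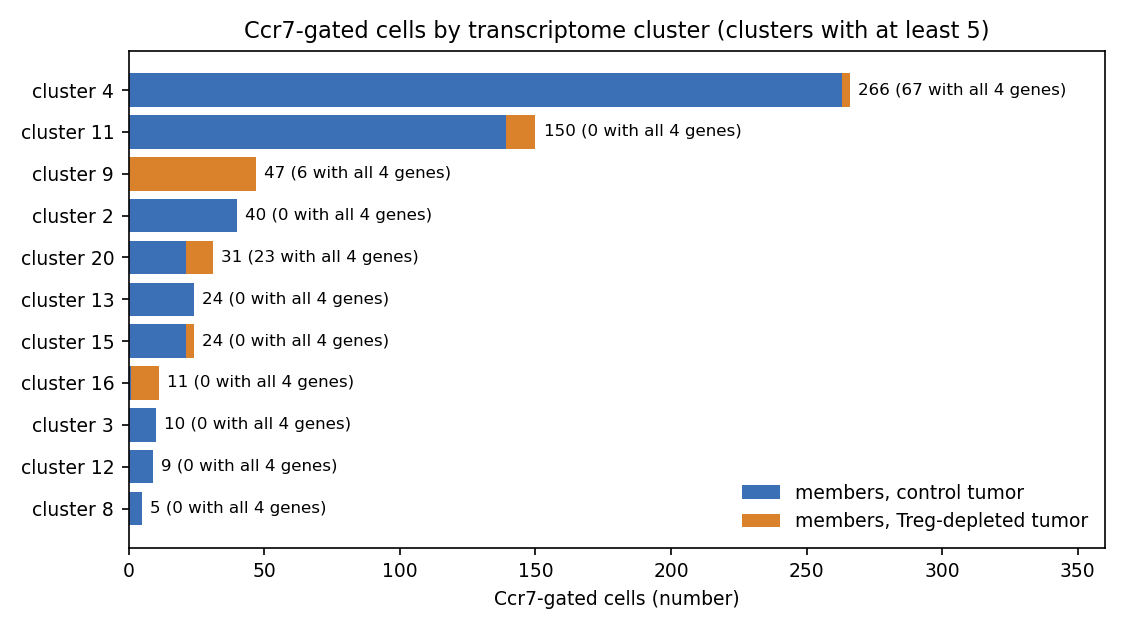
Number of Ccr7-gated cells (horizontal axis) in each transcriptome cluster with at least 5 of them, split by tumor, with the number that had UMIs of all 4 genes of the sum. Cluster 4 held 266 members, 67 of them with all 4 genes, and cluster 20 held 31, 23 of them with all 4.

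Markers of mature dendritic cells outside the gate were high in members of cluster 20 in both tumors. Ccr7 was used by the gate, so its detection is a description only: after thinning to 1000 UMIs it was 95.2% in the 21 control members and 100% in the 10 members from the Treg-depleted tumor, against 52.9% in control members of cluster 4 and 73.4% in control members of cluster 11. None of the 46 cells of cluster 20 was among the removed doublet scores, at a removal rate of 3.55% of the kept cells in each tumor. The median depth of the members of cluster 20 was 6094 UMIs, against 20724.5 in members of cluster 4. A list of 22 markers of mature dendritic cells outside the gate summed to 21258 CPM in control members and 36672 CPM in members of the Treg-depleted tumor. The same sum was 2903 and 2559 CPM in the kept cells that were not members. Of 18 of these markers that passed the filter of a mean of 100 CPM, 17 were at least 2-fold higher in members of cluster 20 than in kept cells of other clusters, with a median log2 ratio of 3.94. Over all 1366 genes that passed, 203 were 2-fold higher or more (14.9%) and 313 were 2-fold lower or more (22.9%), with a median of -0.19. The higher and lower shares were 17.4% and 20.9% in the control tumor alone, and 13.6% and 27.3% in the Treg-depleted tumor alone. The cluster was built from these genes, so the counts describe it and are not read further.

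The markers with the largest ratios were low in nearly all other cells. Tnfrsf4, which encodes the T cell costimulatory receptor OX40, stood at 393 CPM in control members of cluster 20 and 64.8 CPM in those of the Treg-depleted tumor, against 3.22 and 1.09 CPM in kept cells of other clusters. Nudt17, a nudix hydrolase gene, stood at 368 and 140 CPM against 4.76 and 1.35 CPM. Il4i1, which encodes an amino acid oxidase that restrains T cells, stood at 526 and 367 CPM against 24.5 and 17.1 CPM. Its log2 ratio was 4.42 in the control tumor (4.08 to 4.75) and 4.42 in the other (3.87 to 4.94). Socs2, a suppressor of cytokine signaling, stood at 666 and 238 CPM against 16.04 and 21.87 CPM. Samsn1, Tmem123 and Spint2 were also at least 2-fold higher in both tumors. Cd83, a surface marker of maturation, stood at 735 and 615 CPM against 503 and 218 CPM, which is under 2-fold in the control tumor.

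Chemokine genes split in cluster 20. Ccl5, which encodes a chemokine that attracts T cells, stood at 8113 CPM in control members and 10094 CPM in members of the Treg-depleted tumor, against 643 and 290 CPM in other clusters. Ccl17, which encodes another ligand of CCR4, stood at 17381 CPM in members of the Treg-depleted tumor and at 158 CPM in control members. It had a UMI in 8 of the 10 cells and in 8 of the 21, and 1 cell gave 54.5% of the 1610 Ccl17 UMIs in the Treg-depleted tumor. Of 17 chemokines counted, these were the 2 that were at least 2-fold higher, and 14 were at least 2-fold lower, with a list median of -2.97. Among the lower ones were the monocyte attractant Ccl2 (69.7 and 173 CPM against 1580 and 3082) and Ccl4 (57.0 and 32.4 CPM against 982 and 2145). Ccl19, a ligand of CCR7 itself, had no UMI in any set of members.

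Of 5 cytokine genes counted in cluster 20 over both tumors, Il12b was at least 2-fold higher and Tnf, Il1b, Tgfb1 and Inhba were at least 2-fold lower. Il12b, on chromosome 11 from 44400063 to 44414033, encodes the p40 subunit of IL-12 and IL-23. It had a UMI in 10 of 21 control members of cluster 20 and in 6 of 10 members from the Treg-depleted tumor, at 646 and 378 CPM, against 27.9 and 3.90 CPM in other clusters. Tnf, which encodes an inflammatory cytokine, stood at 31.7 and 21.6 CPM against 175 and 397 CPM. Of 6 costimulatory genes counted with the tumors pooled, Cd80, Cd40 and Tnfrsf9 were at least 2-fold higher and none was lower by as much. In the control tumor alone Cd80, Tnfsf9 and Tnfrsf9 were higher of 7 counted, and Cd48 was lower. In the Treg-depleted tumor alone Cd40, Tnfrsf9, Cd48, Icam1 and Cd83 were higher of 6 counted, and none was lower. Tnfrsf9, which encodes the receptor 4-1BB, stood at 216 and 1026 CPM against 10.2 and 57.5 CPM. Of 8 inhibitory or regulatory genes counted, Cd200, Il4i1 and Socs2 were at least 2-fold higher, and 3 were at least 2-fold lower (Socs3, Tgfb1 and Arg1). Cd200, whose product engages an inhibitory receptor on myeloid cells, stood at 545 and 648 CPM against 15.4 and 63.6 CPM. Cd274, which encodes PD-L1, stood at 216 and 227 CPM against 197 and 447 CPM, with a log2 ratio over both tumors of -0.35 (-0.76 to 0.03). Aldh1a2 stood at 12.7 CPM and 0 CPM, and Ido1 had no UMI in cluster 20 members of either tumor.

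NF-kB pathway genes were higher in cluster 20, those of the noncanonical branch included. Of 11 counted, 8 were at least 2-fold higher and none reached 2-fold lower, with a median of 1.36. Relb, which encodes the partner of p52, stood at 513 and 356 CPM in members of cluster 20 against 78.7 and 42.3 CPM in other clusters. Its log2 ratio was 2.70 in the control tumor (2.37 to 3.02) and 3.07 in the Treg-depleted tumor (2.53 to 3.58). Nfkb2, which encodes the p52 precursor, stood at 247 and 194 CPM against 87.3 and 43.3 CPM. Rel stood at 735 and 572 CPM against 338 and 261 CPM. Map3k14, which encodes the kinase NIK, stood at 260 and 162 CPM against 56.6 and 23.9 CPM. Relb, Nfkb2 and Rel were at least 2-fold higher in each tumor, as was Map3k14 in the control tumor. Map3k14 fell under the filter of a mean of 100 CPM in the Treg-depleted tumor and was not counted there. In the Treg-depleted tumor alone 6 of the list were at least 2-fold higher and 4 were lower by that much (Nfkbia, Nfkbiz, Tnfaip3 and Tnfrsf1b).

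Genes of this pathway are known to be transcribed through kappa-B sites of their own, so the bases upstream of their starts were searched for the NF-kB consensus on both strands. The windows are the 250 bases before the most upstream RefSeq start of each gene (GRCm38.p6). The consensus was present in 7 of the 18 NF-kB pathway genes with a window (38.9%), in 1010 of 27025 genes (3.74%) and in none of 15 mature dendritic cell markers. The windows of Rel (chr11:23770970-23771219, minus strand) and Nfkb2 (chr19:46304487-46304736, plus strand) are printed because both genes were higher in cluster 20 of each tumor and both hold the consensus. Capitals mark the bases covered by matches: 2 overlapping matches for Rel, which begin 92 and 91 bases upstream, and 3 for Nfkb2, of which those at 39 and 38 bases overlap and the third begins at 11 bases.

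Rel: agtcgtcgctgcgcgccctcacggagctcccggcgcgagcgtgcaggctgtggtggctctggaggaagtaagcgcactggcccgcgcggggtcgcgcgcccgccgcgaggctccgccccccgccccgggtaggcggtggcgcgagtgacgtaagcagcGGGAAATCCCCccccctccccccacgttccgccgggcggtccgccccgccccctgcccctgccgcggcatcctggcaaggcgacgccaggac
Nfkb2: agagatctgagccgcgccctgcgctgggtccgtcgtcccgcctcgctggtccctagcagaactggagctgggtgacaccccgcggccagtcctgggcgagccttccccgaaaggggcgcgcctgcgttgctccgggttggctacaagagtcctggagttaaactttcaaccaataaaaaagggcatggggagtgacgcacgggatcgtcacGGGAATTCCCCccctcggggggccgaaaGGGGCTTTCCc

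The longest capital runs read GGGAAATCCCC in Rel and GGGAATTCCCC in Nfkb2. A match is a description of the letters and shows no binding. Traf1 and Nfkbib, which were also at least 2-fold higher in both tumors, had no match in their windows. Relb and Ikbkb, higher in both tumors as well, had no window. Nfkbia, Nfkbie, Tnfaip3, Tnip1 and Traf3 had a match and were not higher in both tumors. Of these, Nfkbia and Tnfaip3 were at least 2-fold lower in cluster 20 of the Treg-depleted tumor.

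Genes of cell shape were higher in cluster 20 and those of antigen uptake lower. Of 14 cytoskeleton and migration genes counted, 9 were at least 2-fold higher in cluster 20 members over both tumors (median 1.35). Tbc1d4, which encodes a Rab GTPase-activating protein, stood at 1629 and 486 CPM against 50.9 and 25.9 CPM. Marcksl1, an actin-binding protein gene, stood at 1648 and 1274 CPM against 566 and 286 CPM. Of 15 antigen uptake and lysosome genes counted, 13 were at least 2-fold lower (median -2.05), among them Cd68 with 222 and 10.8 CPM against 709 and 328 CPM. Lyz2, the lysozyme gene of monocytes and macrophages, stood at 412 and 97.2 CPM against 11273 and 3476 CPM.

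Most antigen presentation genes outside the gate did not reach 2-fold in cluster 20. Of 16 counted, 3 were at least 2-fold higher (Psmb8, Psme1 and Psme2, of the immunoproteasome and its activator). Another 3 were at least 2-fold lower (H2-DMa, H2-DMb1 and Lgmn, of antigen processing and loading for MHC class II), beside 14.9% higher and 22.9% lower over all genes counted. Among these genes, Psme2 and H2-DMb1 alone were counted past 2-fold in each tumor taken alone. Psme1 was so in the control tumor only, and Psmb8 and Lgmn in the Treg-depleted tumor only. Psme2 stood at 2548 and 2278 CPM against 847 and 906 CPM. H2-DMa stood at 228 CPM against 803 CPM in the control tumor, and at 464 CPM against 469 CPM in the Treg-depleted tumor, so the direction rested on the control tumor.

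Defining genes of the conventional dendritic cell subsets had few or no UMIs in cluster 20. Xcr1, of type 1 conventional dendritic cells (cDC1), and Cd209a, of type 2 cells (cDC2), had no UMI in the 31 members, which allows up to 11.98 CPM (3 UMIs over the set). Clec9a, also of cDC1, had a UMI in 3 of the 31 members (9.68%), at 11.98 CPM, and in 4.01% of the kept cells that were not members, at 10.00 CPM. The 4 cDC1 genes counted (Naaa, Ppt1, Ifi205 and Rab7b) were at least 2-fold lower, as were 3 of 5 cDC2 genes. Genes shared by dendritic cells were higher. Flt3, the receptor gene for their growth factor, stood at 165 and 75.6 CPM in members of cluster 20, against 9.94 and 4.89 CPM in the kept cells that were not members. Id2 stood at 2523 and 1878 CPM against 709 and 803 CPM in other clusters, and Irf8 at 1299 and 1781 CPM against 444 and 348 CPM. Both encode transcription factors of dendritic cell development. Markers of monocytes and macrophages summed to 3866 CPM in the control members of cluster 20 and to 378 CPM in the others, against 28218 and 8567 CPM in kept cells that were not members. Per cell, the sum ran from 531 to 10315 CPM in those control members with a median of 891 CPM, and 1 cell gave 80.9% of their C1qa UMIs.

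**Figure D3:**
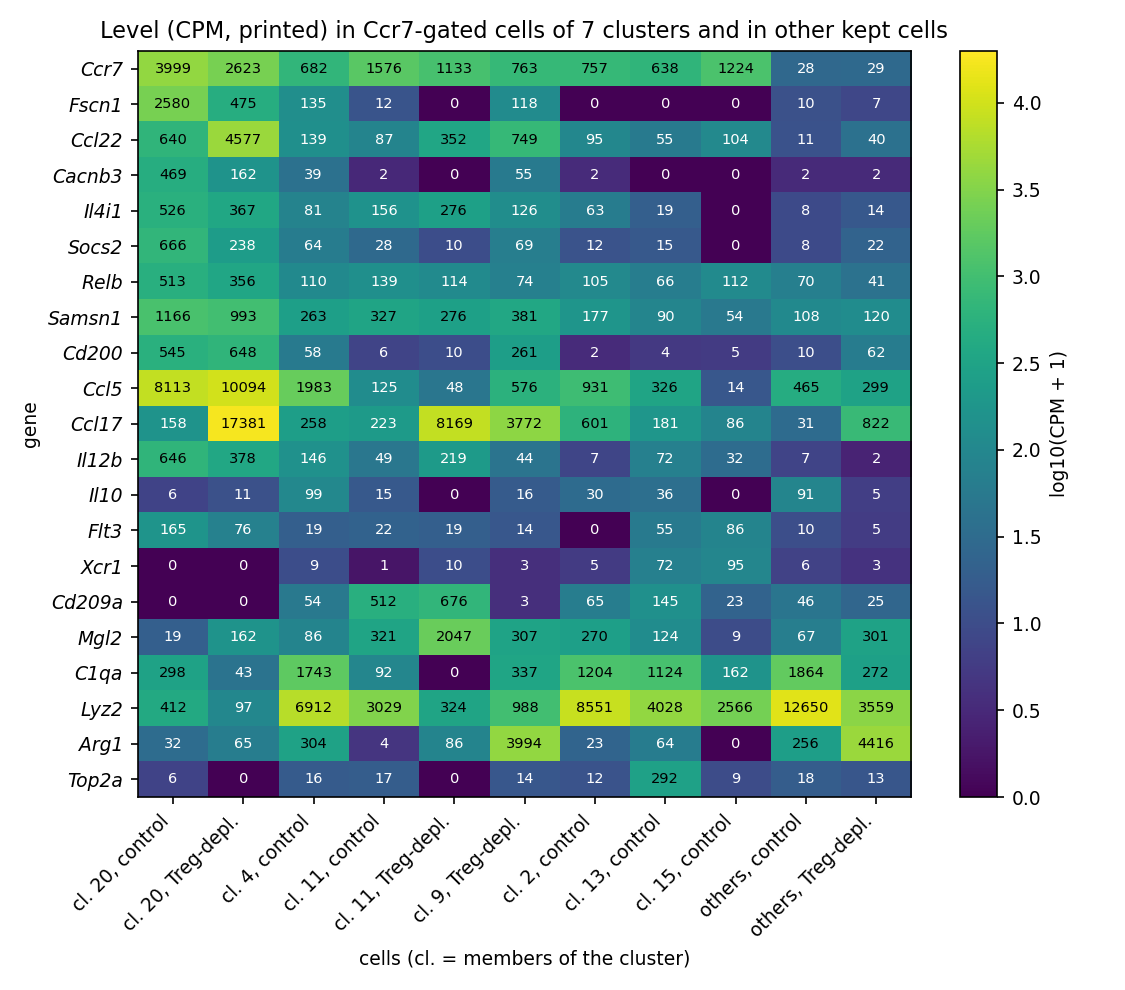
Level of selected genes (vertical axis, CPM printed in each cell and coloured on a log10 scale) in Ccr7-gated cells of 7 clusters by tumor and in the kept cells that were not members (horizontal axis). Fscn1 stood at 2580 CPM in control members of cluster 20, at 135 CPM in those of cluster 4 and at 0 CPM in those of clusters 2, 13 and 15.

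Cluster 4, with the most members, combined part of the mature program with macrophage transcripts. Its leading genes were Il12b, Tbc1d4, Fscn1, Serpinb6b and Il10. Il12b stood at 146 CPM in its 263 control members and at 12.7 CPM in the 363 control cells of the cluster outside the gate. Il10, which encodes an anti-inflammatory cytokine, stood at 99.2 CPM in those members and 194 CPM in those outside, against 6.34 CPM in control members of cluster 20. In cluster 4, 90 control members had an Il12b UMI, 133 had an Il10 UMI and 41 had both. C1qa, a complement gene of macrophages, stood at 1743 CPM in these members against 298 CPM in control members of cluster 20. Of the 90 members with Il12b, 88 also had a UMI of C1qa, C1qb or C1qc. Mature markers summed to 5710 CPM and monocyte and macrophage markers to 20265 CPM. Members of cluster 4 had a median of 20724.5 UMIs, and 25 of the 266 were among the removed doublet scores. Over all cells of the cluster, members included, 63 of 634 were. Whether a droplet of cluster 4 held 1 cell or several was not tested.

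Cluster 11 members had Ccr7 together with Cd209a, and most of them had none of the other 3 genes of the sum. The cluster was led by Cd209a, Klrd1 and Cd7. Cd209a, a C-type lectin gene of cDC2 and of monocyte-derived dendritic cells, stood at 512 CPM in its control members and 676 CPM in its members from the Treg-depleted tumor, against 45.6 and 25.4 CPM in cells that were not members. Ccr7 stood at 1576 and 1133 CPM, yet 98 of the 150 members had none of the other 3 genes and none had all 4. Fscn1 stood at 12.2 and 0 CPM. A Ccl22 UMI was found in 38 of the 139 control members and in 8 of the 11 members of the Treg-depleted tumor. Klrd1, which encodes the receptor chain CD94, stood at 532 and 295 CPM. Il4i1 stood at 156 and 276 CPM, which is above the 8.15 and 14.4 CPM of cells that were not members and below the levels in cluster 20. Il12b stood at 49.0 and 219 CPM, the latter from 1 cell of the 11.

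Cluster 9 held 47 members of the Treg-depleted tumor and none of the control, and 363 of its 364 kept cells came from the Treg-depleted tumor. Retnla, Ccl22 and Ccl17 were among its leading genes. Ccl17 stood at 3772 CPM in these members and at 1380 CPM in the 316 cells of the cluster outside the gate, and Ccl22 at 749 and 196 CPM. Arg1, which encodes arginase and marks alternatively activated macrophages, stood at 3994 CPM in members and 4559 CPM outside, against 64.8 CPM in cluster 20 members of the same tumor. Fscn1 stood at 118 CPM and Cd200 at 261 CPM in these members. Another 39 cells of cluster 9 met the counts and failed on MHC class II alone.

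The remaining members differed in how much they carried beside Ccr7. In cluster 2, led by Cxcl1, 27 of the 40 members had none of the other 3 genes of the sum. They had 757 CPM of Ccr7, no Fscn1 UMI and 8551 CPM of Lyz2. In cluster 15, led by Itgae, Plet1 and Xcr1, the 21 control members had 1224 CPM of Ccr7 and 94.5 CPM of Xcr1, with no UMI of Fscn1, Cacnb3, Il4i1 or Socs2 and a Ccl22 UMI in 6 cells. In cluster 13, led by Top2a and other genes of dividing cells, the 24 members had 292 CPM of Top2a and 638 CPM of Ccr7. Cluster 16, led by Ccl17, Asgr2 and Plet1, held 11 members, 10 of them from the Treg-depleted tumor, and 3 of the 11 had Ccr7 alone. Cluster 12 held 9 control members, of which 1 had Ccr7 alone.

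Against the other kept cells of the tumors, all 628 members together had few genes past 2-fold. Of 2476 genes with a mean of at least 50 CPM, 58 were at least 2-fold higher in members (2.34%) and 45 were lower by as much (1.82%). Of 2143 genes that passed the filter in each tumor alone, 36 were at least 2-fold higher in both (1.68%) and 14 lower in both (0.653%). Of the 103 genes past 2-fold, 56.3% were higher, and 43.8% were when each cell was weighted equally by its own CPM. Il12b had the largest ratio, with a UMI in 131 of 628 members and in 61 of 8249 other cells. It stood at 121 CPM in control members against 6.63 CPM in the others, and at 107 against 1.67 CPM in the Treg-depleted tumor. Its pooled log2 ratio was 4.66 (4.45 to 4.87). Tbc1d4 stood at 212 against 17.1 CPM and at 349 against 18.2 CPM. Serpinb6b stood at 166 against 15.7 CPM and at 282 against 15.4 CPM. Both were highest among members in cluster 20.

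Other genes among the 12 with the largest ratios were not those of cluster 20 alone. Stat4, the transducer of IL-12 signals, stood at 53.5 CPM in control members and 60.7 CPM in members of the Treg-depleted tumor, against 10.5 and 4.08 CPM in others. Serpinb9, which encodes an inhibitor of granzyme B, stood at 312 and 469 CPM against 61.3 and 39.3 CPM. Klrd1 stood at 144 and 69.8 CPM against 33.3 and 7.52 CPM, with 532 CPM in control members of cluster 11 and 57.0 CPM in those of cluster 20. H2-Oa, which encodes a modulator of MHC class II loading, stood at 79.6 and 51.7 CPM against 16.1 and 5.64 CPM. Ramp3, P2ry10, Rogdi, Il4i1 and Serpinb1a completed the 12.

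The 12 genes with the lowest ratios in members included Chil3, Nos2, Arg1, S100a8 and S100a9. Chil3, which encodes a chitinase-like lectin, stood at 94.1 CPM in control members against 363 CPM in others, and at 682 against 2330 CPM in the Treg-depleted tumor. Nos2, which encodes inducible nitric oxide synthase, stood at 5.64 against 12.2 CPM and at 51.7 against 162 CPM. Arg1 stood at 211 against 256 CPM in the control tumor and at 2159 against 4416 CPM in the Treg-depleted tumor, so that its pooled log2 ratio of -2.30 mixes 2 tumors with unlike levels and unlike numbers of members. S100a8 and S100a9, the calprotectin genes of neutrophils, had the lowest ratios (-3.80 and -3.92), and 59.0% of the S100a9 UMIs in members came from 1 cell. Il1r2, the other neutrophil marker counted, was at least 2-fold higher in each tumor. The neutrophil markers summed to 533 CPM in control members and 332 CPM in the other control cells, and to 468 against 1292 CPM in the Treg-depleted tumor. Ccl24, Slc7a2, Retnla, Mmp12, Mmp13, Hp and Hcar2 completed the 12. Like Arg1, Ccl24, Slc7a2, Retnla, Mmp12 and Mmp13 were far higher in members of the Treg-depleted tumor than in control members. Their pooled ratios against other cells therefore also mix tumors with unlike levels.

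By list, 8 of 13 mature dendritic cell markers counted were at least 2-fold higher in members over both tumors, with a median log2 ratio of 1.09 against -0.04 over all genes counted. Of the NF-kB list 3 of 17 were at least 2-fold higher, and of the cytoskeleton list 3 of 13. Of 17 chemokines 2 were higher over both tumors (Ccl17 and Ccl5) and 4 lower (Ccl3, Ccl6, Ccl24 and Cxcl3). In the control tumor alone Ccl17 and Ccl5 were higher of 16 counted, and Ccl3 was the only one lower. In the Treg-depleted tumor alone 3 of 17 were higher and 9 were lower, those 4 among them. Over both tumors none of 7 costimulatory genes, 12 type I interferon genes or 18 interferon gamma genes reached 2-fold in either direction, and of 14 monocyte and macrophage markers Ly6c2 was at least 2-fold lower (median -0.51).

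The tumors taken one at a time gave other counts. In the control tumor 46 of 2473 genes were at least 2-fold higher in members (1.86%) and 16 were lower by as much (0.647%). In the Treg-depleted tumor 102 of 2392 were higher (4.26%) and 129 lower (5.39%). In the control tumor none of the costimulatory or interferon genes reached 2-fold, and Lyz2 and Ly6c2 were the 2 of 14 monocyte and macrophage markers that were lower (median -0.62). Of the 7 costimulatory genes, Cd80, Cd40 and Tnfrsf9 were higher in the Treg-depleted tumor. There Ifit1 and Rtp4 were lower among the type I interferon genes, and among the interferon gamma genes Cxcl9 was higher and Fcgr4 lower. Of 13 monocyte and macrophage markers counted in that tumor, 8 were at least 2-fold lower (median -1.10), Lyz2 and Ly6c2 among them.

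**Figure D4:**
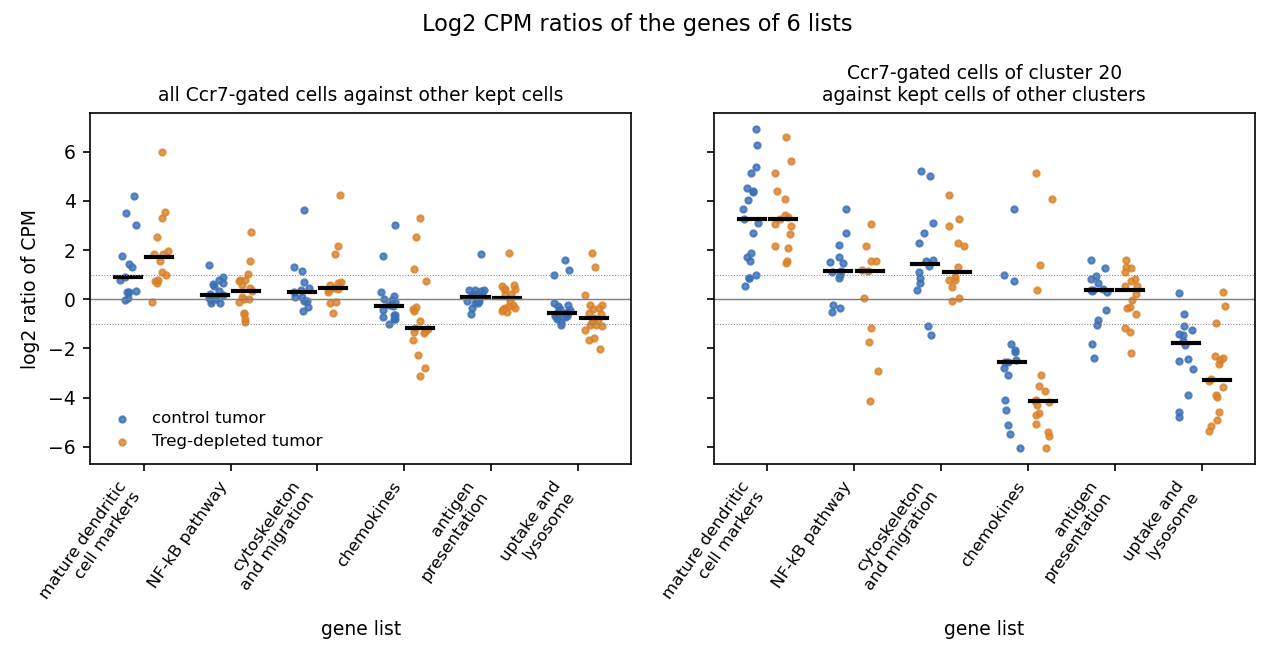
Log2 ratio of CPM (vertical axis) of the counted genes of 6 lists, each point a gene and each bar the list median, coloured by tumor, for all Ccr7-gated cells against other kept cells (left) and for those of cluster 20 against kept cells of other clusters (right). Over both tumors the median of the mature dendritic cell markers was 1.09 on the left and 3.94 on the right.

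The cells most like the members were compared next. A cDC1 gate (at least 2 UMIs of Xcr1 and Clec9a together, no Siglech UMI, MHC class II as for members) held 81 control cells and 32 cells of the Treg-depleted tumor that were not members. Of 2434 genes, 94 were at least 2-fold higher in members over both tumors (3.86%) and 42 were lower by as much (1.73%). In the control tumor alone 95 of 2435 were higher and 31 lower. In the Treg-depleted tumor alone 209 of 2360 were higher and 181 lower. Over both tumors, 10 of 13 mature dendritic cell markers were higher (median 1.56) and 5 of 7 cDC1 genes were lower (median -1.51). Il12b stood at 120 CPM in members of both tumors against 1.83 CPM in the cDC1 gate. Ccl5 stood at 1580 CPM against 106 CPM, a log2 ratio of 3.89 (3.68 to 4.12). Itgae, which encodes the integrin CD103, stood at 10.8 CPM against 80.6 CPM, and Cd24a at 64.6 against 335 CPM. Wdfy4, which encodes a protein needed for cross-presentation, stood at 35.3 against 132 CPM. Of 10 type I interferon genes 6 were higher in members over both tumors (Isg15, Ifit1, Rsad2, Oasl2, Xaf1 and Rtp4). In the control tumor alone 5 of 9 counted were higher, Ifit1 not among them. In the Treg-depleted tumor alone 3 of 11 were higher (Rsad2, Oasl2 and Xaf1). Of 17 chemokines 9 were higher over both tumors and 1 was lower (Ccl24). Monocyte and macrophage markers summed to 16913 CPM in control members and 12687 CPM in the control cDC1 gate, and their part in these values was not tested.

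A Cd209a gate (at least 2 Cd209a UMIs, the rest as for the cDC1 gate) held 139 control cells and 67 cells of the Treg-depleted tumor. Members differed less from these cells: over both tumors 32 of 2456 genes were at least 2-fold higher (1.30%) and 14 were lower by as much (0.570%). In the control tumor alone 26 of 2464 were higher and 17 lower. In the Treg-depleted tumor alone 125 of 2371 were higher and 92 lower. Ccl5 had the largest ratio, with 1580 CPM in members against 116 CPM. Serpinb6b stood at 175 against 14.9 CPM, Tbc1d4 at 223 against 22.4 CPM and Cd200 at 64.3 against 5.74 CPM. Il12b stood at 120 against 18.9 CPM, a log2 ratio of 2.66 (2.16 to 3.21). The 33 Il12b UMIs of the Cd209a gate came from 2 of its 206 cells, while 131 of 628 members had one. The lectin genes Clec10a and Mgl2 were lower in members, at 141 against 377 CPM and 184 against 481 CPM, and so was Cd7 at 28.6 against 188 CPM. Of 13 mature dendritic cell markers 5 were higher over both tumors (median 0.63). In the control tumor alone 3 of 13 were higher (median 0.47), and in the Treg-depleted tumor 10 of 15 (median 1.53). Over both tumors none of 17 NF-kB genes reached 2-fold, with a median of 0.15 against -0.05 over all genes counted. In the Treg-depleted tumor alone Relb was at least 2-fold higher.

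Between the tumors, members of the Treg-depleted tumor had higher levels of Ccl17, Ccl24 and Arg1 and lower levels of Apoe, Lyz2, C1qa and C1qb. The members compared lay in different clusters: 263 of 540 control members were in cluster 4 and 47 of 88 members of the Treg-depleted tumor in cluster 9. The kept cells of clusters 4 and 9 as a whole were split by tumor in the same direction. Of 1361 genes with a mean of at least 100 CPM, 74 were at least 2-fold higher in the Treg-depleted tumor (5.44%) and 71 were lower by as much (5.22%). The higher share of these was 51.0%, and 64.1% when the tumors were scaled by the median of the gene ratios. The median of all genes counted was -0.10.

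Ccl17 stood at 8036 CPM in members of the Treg-depleted tumor, where 71 of 88 cells had a UMI, and at 251 CPM in control members, where 155 of 540 had one. The log2 ratio was 5.00 (4.93 to 5.07). The other kept cells differed in the same direction, with 822 CPM under Treg depletion and 30.5 CPM in control. Ccl22, a gene of the gate that was not left out of the counts between the tumors, had a log2 ratio of 3.14. Ccl24, which encodes an eosinophil attractant, stood at 1993 against 28.3 CPM in members, and at 4970 against 48.9 CPM in the other kept cells. Arg1 stood at 2159 against 211 CPM in members and at 4416 against 256 CPM in the other kept cells. Retnla stood at 735 against 22.3 CPM, with 23.9% of the UMIs from 1 cell. Tnfrsf9 stood at 328 against 25.4 CPM. Slc7a2, Mmp13, Chil3, AA467197, Mmp12 and Plet1 completed the 12 highest.

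Among the lower genes, Apoe, which encodes a lipid carrier of macrophages, stood at 55.6 CPM in members of the Treg-depleted tumor and 2740 CPM in control members, a log2 ratio of -5.62. The other kept cells had 147 and 4083 CPM of Apoe. C1qb stood at 233 against 1972 CPM in members, C1qa at 198 against 1350 CPM and Lyz2 at 886 against 6117 CPM. Of 12 monocyte and macrophage markers counted, 9 were at least 2-fold lower in the Treg-depleted tumor and Mrc1 was among those higher by as much, with a median of -2.43. Their sum over 14 markers was 3210 CPM in members of the Treg-depleted tumor and 16913 CPM in control members. Ms4a7, Cd72, Cxcl1, Dusp2, C1qc, Ckb, Limd2 and Timp2 completed the 12 lowest. None of 12 NF-kB genes reached 2-fold, and of 13 mature dendritic cell markers Ccl17 and Cd200 alone did.

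**Figure D5:**
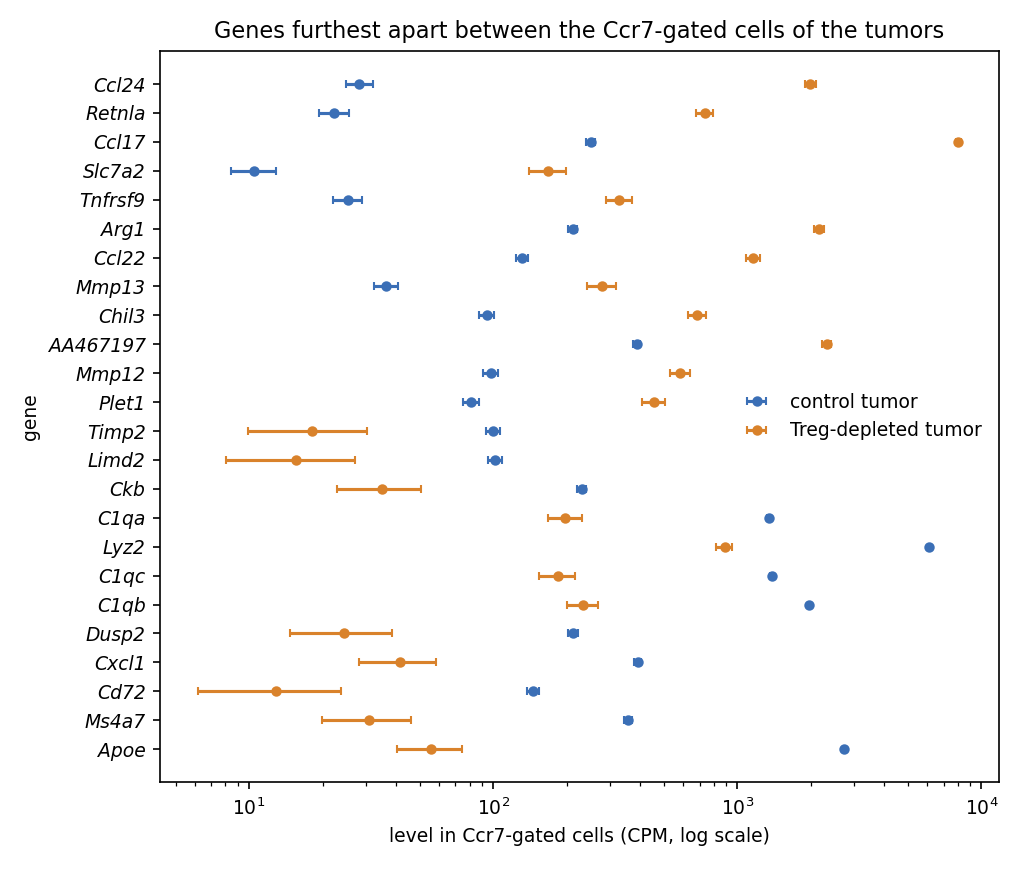
Level in Ccr7-gated cells (horizontal axis, CPM, log scale) of the 24 genes furthest apart between the tumors (vertical axis), with 95% counting intervals where wider than the point. Ccl17 stood at 251 CPM in control and 8036 CPM under Treg depletion, and Apoe at 2740 and 55.6 CPM.

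Within cluster 20 the tumors could be compared on 21 control members and 10 of the Treg-depleted tumor. Of 1256 genes counted, 93 were at least 2-fold higher in the latter (7.40%) and 197 were lower by as much (15.7%). Ccl17 stood at 17381 CPM in the Treg-depleted and 158 CPM in the control members, and Tnfrsf9 at 1026 and 216 CPM. Apoe had no UMI in the 10 members of the Treg-depleted tumor and stood at 887 CPM in the 21 control members, where 81.4% of the Apoe UMIs came from 1 cell. All 7 monocyte and macrophage markers counted were at least 2-fold lower in the Treg-depleted tumor. As given above, 1 cell also gave most of the C1qa UMIs of the control members. The part of single cells in the other markers was not tested. Of 19 mature markers Apol7c and Ccl17 were at least 2-fold higher, and 5 were lower by as much (Socs2, Traf1, Tmem123, Nudt17 and Tnfrsf4). Of 10 glycolysis and hypoxia genes, 6 were at least 2-fold higher (median 1.08), with Gapdh at 2548 against 1052 CPM and Aldoa at 1555 against 691 CPM. Within cluster 11, on 11 and 139 members, Ccl17 stood at 8169 against 223 CPM and Mgl2 at 2047 against 321 CPM. Ccl17 was higher in members of the Treg-depleted tumor in each of these clusters.

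Markers of other cell types were summed in members and in the other kept cells of each tumor. T cell markers summed to 4.35 CPM in control members and 1.29 CPM in those of the Treg-depleted tumor, B cell markers to 5.88 and 1.29 CPM, and melanoma markers to 30.9 and 12.9 CPM. Cd3e and Cd3g were at 0 in both tumors. Mast cell and basophil markers summed to 0.823 and 3.88 CPM, and fibroblast and endothelial markers to 20.1 and 20.7 CPM. NK cell markers were higher, at 206 CPM in control members against 138 CPM in the other control cells and 127 against 64.2 CPM in the Treg-depleted tumor. Nearly all of it in members was Klrk1, and the defining genes Ncr1 and Prf1 were at 0. Plasmacytoid dendritic cell markers summed to 515 against 687 CPM and 412 against 474 CPM. In the control tumor 430 of 540 members had a UMI of the NK cell list, 512 of the plasmacytoid list and 429 of the neutrophil list. The part of these markers in the results was not tested.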

How the data were processed

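Single-cell libraries had been made with the 10x Genomics 3' v2 kit, per the labels' protocols, and processed with Cell Ranger 1.2 against mm10, per the submitters' processing notes. The authors deposited raw UMI counts of 27998 genes in 737280 barcodes per library, with 22944387, 42493416 and 23291061 UMIs in the blood, the control tumor and the Treg-depleted tumor. The members and gene lists were chosen with earlier results of these data known. Counts were summed over the cells of a set and divided by their total (CPM). Ratios took 3 counts over the set as floor for 0, with exact Poisson intervals at 95%. Genes were counted from a mean of 50 CPM (100 between tumors and for cluster 20). Genes named are the 12 highest and 12 lowest ratios per comparison, with at least 20 UMIs in the higher set and, against other kept cells, the same direction in both tumors, or genes of the lists. Genes of a gate were left out of the counts of members against other cells. They were not left out of the counts between the tumors. Kept tumor cells were clustered without the 8 genes of the gate (2000 variable genes, 30 components, 20 neighbours, Leiden resolution 1, leidenalg 0.10.2). Scrublet called no doublet, so the highest scores were removed at the expected rate as an alternative. Of 327 list genes 323 were found, and of 87 marker genes of other cell types 82. The counting was checked on simulated counts. One gene of the lists is not reported here by name.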

Additional observations from a re-analysis of the deposited data

How the results depend on the processing

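No paired analysis was possible because each group has 1 library. No ratio of a named gene changed direction under the alternatives run. Some list medians between the tumors and against the Cd209a gate crossed 0, each under 2-fold on both sides, and the balance of higher and lower counts turned under some settings. The counts of genes past 2-fold moved most with the filter on mean CPM, since it sets how many genes are counted. With the filter at 0.5 times, at 2 times and without it, members against other cells gave 94, 27 and 3600 higher and 66, 33 and 841 lower, so the balance of 58 higher and 45 lower turned at 2 times. Against the cDC1 gate the same settings gave 161, 50 and 826 higher and 83, 20 and 3465 lower, and against the Cd209a gate 58, 14 and 789 higher and 30, 7 and 3078 lower, so both balances turned without the filter. Between the tumors 2 times gave 45 higher and 34 lower, 0.5 times gave 109 higher and 144 lower, against 74 and 71 as reported, removing the highest doublet scores gave 68 and 73, subtracting free RNA gave 71 and 75, and no filter gave 4493 higher and 1140 lower. With the mean over cells of each cell's CPM, 89 were higher and 114 lower against other cells, which also turned the balance, and 64 higher against the Cd209a gate. The control share was 13.8% with a UMI minimum set per library, 10.4% with a sum of at least 6 UMIs and 5.78% for cells thinned to 3000 UMIs. The share in the Treg-depleted tumor was 1.04% with MHC class II of at least 2%. The largest cluster held 36.9% of members at resolution 0.5 and 30.6% at resolution 2, where cluster 20 had 46 cells. At resolution 0.5 the 31 members of cluster 20 lay in a cluster of 321 cells and 232 members. For shifts of these shares the cause was not tested. Thinning the gate and removing the highest doublet scores were chosen after seeing the data. Of the ratios of named genes 784 stayed within their counting interval under an alternative and 80 moved. The 784 include 96 from each of the 3 filter settings, which cannot change a ratio. With the mean over cells of each cell's CPM, 46 ratios moved and 50 stayed. With free RNA subtracted, 18 moved and 78 stayed. Of list medians 497 stayed and 3 moved. Intervals cover counting error; no spread between mice is known.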
